A study of Homo sapiens with 2 samples.

Results

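Heparan sulfate and chondroitin sulfate are long, sulfated sugar chains that cells attach to serines of proteoglycan core proteins. Expression of 57 genes of this system was followed in H9-derived neural precursor cells (NPC) and in the undifferentiated H9 human embryonic stem cells (hESC) they came from. The genes were chosen by symbol, not by level: glypicans, syndecans, CSPG4 and CSPG5 as core proteins, and the enzymes that start, extend, sulfate and edit the chains, among 24462 symbols with counts. The CHST symbols also take in sulfotransferases that act on keratan sulfate and on glycoproteins, which are described apart.

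RNA sequencing gave 1 library of NPC and 1 library of hESC. H9 is a long-established line of human pluripotent cells, and both libraries share its genetic background with no transgene or drug named in the labels. The NPC had been differentiated on MS5 cells, a mouse stromal line that serves as a feeder layer, and the labels do not say whether feeder cells were removed before RNA was taken. With 1 library per condition, taken from a single line, the differences below have no replicate check and no p-value, and culture, library and cell state cannot be told apart.

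The NPC library held 24040080 counted reads and the hESC library 19669442. Levels are in CPM, read counts per 1000000 reads of a library after trimmed-mean (TMM) scaling. Each ratio of NPC to hESC has a 95% counting interval, given in brackets, which covers counting error only. A gene with at least 5 CPM in either library is called measured. A call of higher or lower needs a near bound, the end of the interval closer to equal levels, of 2-fold or more. All 7 pluripotency markers were lower in the NPC library, at 31.9 CPM summed in NPC against 7050 CPM in hESC. Of 7 neural precursor markers 6 were measured, 4 of these were higher, none was lower, and the list summed to 1014 CPM in NPC against 612 CPM in hESC. Of the pluripotency markers 6 passed the filter in hESC alone, and 2 of the higher neural precursor markers in NPC alone. Such genes could not have been called in the other direction. Over all measured genes 19.6% were called higher and 19.8% lower. Scaling to the library total in place of TMM moves every log2 ratio up by 0.36, so directions are relative to TMM.

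As background, core proteins place the chains at the membrane or in the matrix, and the pattern of sulfate groups along a chain sets which growth factors and morphogens it holds. Heparan sulfate acts as a co-receptor for FGF and shapes WNT, hedgehog and BMP signals in the developing neural tube. Chondroitin sulfate is a main component of the matrix around neural stem cells and growing axons. The chains start with xylose, diverge when the first amino sugar is added, are polymerised and then modified by deacetylation, epimerisation and sulfation.

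Of the 57 genes, 43 were measured and 14 lay below 5 CPM in both libraries. In the NPC library 12 of the 43 were higher (27.9%), 9 were lower (20.9%) and 22 were not called. Over all 13535 measured genes, 19.6% were called higher and 19.8% lower, so the share called lower lay near that background and the share called higher somewhat above it. The median log2 ratio was 0.11 over the 43 genes, also with NDST4, which had no hESC read, set at its bound, and -0.09 over all measured genes. NDST4 was the only higher gene to pass the filter in the NPC library alone. Among the lower genes HS3ST3A1, HS3ST3B1, CHST4, CHST8 and CHST9 passed it in the hESC library alone. A gene that passed in a single library could not have been called in the other direction. Over all measured genes, 1261 of 2649 called higher passed in NPC alone, and 829 of 2683 called lower passed in hESC alone. The shares called thus mix calls of this kind in different proportions for the members and for all genes. Among the 43 measured genes the ratios farthest from no change were those of SULF1, NDST4, GPC3 and SULF2 upwards and of CHST9, CHST8, CHST4 and HS3ST3A1 downwards.

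**Figure D1:**
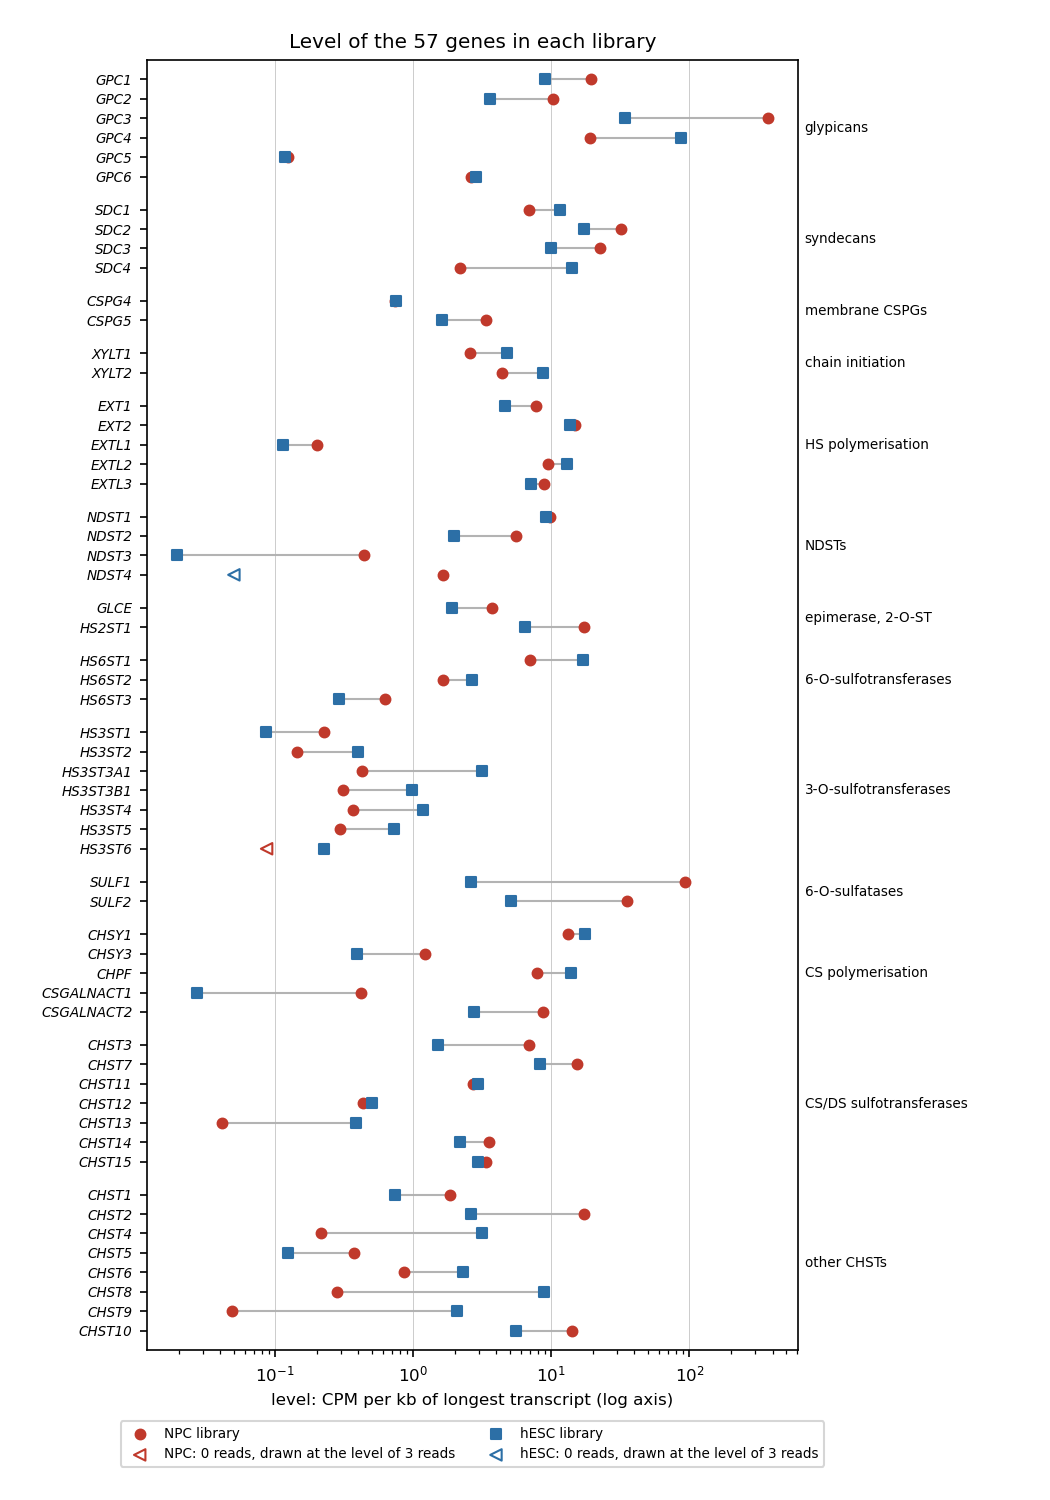
Level of each of the 57 genes in the NPC library (circles) and the hESC library (squares), as CPM per kb of the longest annotated transcript on a log axis, grouped by role; open triangles mark a library with 0 reads, drawn at the level of 3 reads. GPC3 has the highest NPC level (373 CPM per kb) and GPC4 the highest hESC level (87.3 CPM per kb).

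Ordered by level per kb of the longest transcript annotated in GENCODE 29, GPC3 was first in the NPC library at 373 CPM per kb and SULF1 second at 93.6 CPM per kb. SULF2 followed at 35.6 CPM per kb and SDC2 at 31.8 CPM per kb. In the hESC library GPC4 came first at 87.3 CPM per kb, followed by GPC3 at 34.3, CHSY1 at 17.5 and SDC2 at 17.2 CPM per kb. SULF1, second in NPC, ranked 31 of the 57 genes in hESC at 2.64 CPM per kb. GPC3 stood above 99.1% of all measured genes with a length in NPC and above 83.6% in hESC. The same length was used for both libraries, and which transcript each library held is not known. A transcript shorter than the longest would raise a gene's level per kb in each library that used it.

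The glypicans, which hold heparan sulfate at the membrane through a lipid anchor, exchanged their leading member. GPC3, a glypican that binds hedgehog and WNT ligands and is mutated in an overgrowth syndrome, had 26074 reads (959 CPM) in NPC and 1531 reads (88.1 CPM) in hESC. Its NPC level was thus 10.9-fold higher (10.3 to 11.5). GPC4, a glypican of WNT and BMP signalling, had 2585 reads (95.03 CPM) in NPC and 7524 reads (433 CPM) in hESC, and was 4.55-fold lower (4.36 to 4.76). These genes went in opposite directions although they are next to each other on the X chromosome, with no other protein-coding gene between them in the RefSeq gene table.

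Within the glypican family the share of reads on GPC3 was 82.0% in NPC (Wilson 95% interval 81.6 to 82.4) and 15.1% in hESC (14.4 to 15.8). The share of GPC4 was 8.13% in NPC (7.83 to 8.43) and 74.4% in hESC (73.5 to 75.2). These shares do not depend on how the libraries are scaled. Per kb of transcript, GPC3 made up 87.9% of the family's level in NPC and 25.02% in hESC, and GPC4 made up 4.51% in NPC and 63.7% in hESC.

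GPC2, a glypican of the developing nervous system, had 702 reads in NPC and 158 in hESC and was 2.83-fold higher (2.39 to 3.40). GPC1, which is widely expressed and is abundant in brain, had 1971 reads in NPC and 576 in hESC, a ratio of 2.19 (1.99 to 2.40). Its near bound fell just short of 2-fold, so it was not called, but it was called with upper-quartile scaling (2.03), with the library total (2.55), by the point ratio itself (2.19) and with the trend with transcript length removed (2.004). GPC6, with 462 reads in NPC and 322 in hESC, had a ratio of 0.92 (0.79 to 1.06). Its neighbour GPC5 had 10 reads in NPC and 6 in hESC and was below the filter. Thus GPC1, GPC2 and GPC3 had ratios above 2, and GPC4 alone of the glypicans was called lower. Of the 5 measured glypicans 2 were called higher and 1 lower, beside 19.6% and 19.8% over all measured genes.

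The 4 syndecans, which are transmembrane core proteins, were all measured. Of these 1 was called higher (25%) and 1 lower (25%), beside 19.6% and 19.8% over all measured genes. SDC3, the syndecan of nervous tissue, had 3925 reads (144 CPM) in NPC and 1096 (63.1 CPM) in hESC and was 2.29-fold higher (2.14 to 2.45). That call was lost when the trend with transcript length was removed, where its near bound was 1.79. SDC4, a syndecan of focal adhesions, had 156 reads (5.73 CPM) in NPC and 644 (37.0 CPM) in hESC and was 6.44-fold lower (5.42 to 7.75). SDC4 thus lay just above the filter in NPC.

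SDC2 had 3254 reads in NPC and 1125 in hESC, a ratio of 1.85 (1.73 to 1.98), which passed the rule with the library total only. SDC1, the main syndecan of epithelia, had 617 reads in NPC and 666 in hESC, a ratio of 0.59 (0.53 to 0.66). SDC2 and SDC3 together therefore led the family in NPC: per kb SDC2 held 50.1% of the syndecan level in NPC and 32.5% in hESC, and SDC3 held 35.6% in NPC and 18.6% in hESC. SDC4 held 3.46% in NPC and 26.8% in hESC. The 2 membrane chondroitin sulfate proteoglycans were not called, beside 39.4% called over all measured genes. CSPG5, neuroglycan C, had 380 reads in NPC and 116 in hESC, a ratio of 2.09 (1.70 to 2.60), and was called with the library total and by the point ratio. CSPG4, the NG2 antigen of oligodendrocyte precursors and pericytes, had 167 reads in NPC and 108 in hESC, a ratio of 0.99 (0.77 to 1.27), and its reads may be shared with pseudogene copies.

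The promoters of the core protein genes called lower, GPC4 and SDC4, are shown to let their base composition be seen beside these values. Each runs from 250 bases before to 50 bases after the start of the gene, 5′ to 3′ on the gene's strand, from RefSeq on GRCh38.p14, which is another build than the one the reads were counted on. Capitals mark GGGCGG, the core of the GC box, or its reverse complement CCGCCC.
GPC4, chrX:133415440-133415739, minus strand: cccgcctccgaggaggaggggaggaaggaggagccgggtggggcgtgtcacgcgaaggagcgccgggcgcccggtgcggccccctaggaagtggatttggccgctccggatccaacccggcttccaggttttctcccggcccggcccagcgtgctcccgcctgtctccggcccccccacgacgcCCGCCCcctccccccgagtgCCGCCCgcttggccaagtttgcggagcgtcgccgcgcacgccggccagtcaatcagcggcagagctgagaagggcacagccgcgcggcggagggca
SDC4, chr20:45348375-45348674, minus strand: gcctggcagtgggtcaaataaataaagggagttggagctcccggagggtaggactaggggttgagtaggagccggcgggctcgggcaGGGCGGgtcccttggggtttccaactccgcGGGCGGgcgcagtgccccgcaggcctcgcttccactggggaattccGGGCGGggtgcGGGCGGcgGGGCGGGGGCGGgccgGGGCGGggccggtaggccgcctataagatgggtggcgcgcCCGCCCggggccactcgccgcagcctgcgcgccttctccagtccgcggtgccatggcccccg

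GPC4 held 37 CG dinucleotides and 2 matches to GGGCGG on either strand, and SDC4 held 33 CG dinucleotides and 8 matches. Over the 35116 promoters of that table the median was 14 CG dinucleotides, and 45.0% held GGGCGG. Of the 57 genes, 49 had a promoter in the table, with a median of 29 CG dinucleotides and GGGCGG in 39. GPC3 and SULF1, both called higher, were not among these. The median was 34 CG dinucleotides for genes called higher, 34 for genes called lower and 24 for genes not called. The medians thus did not separate the directions for genes with a promoter entry. Single genes varied widely: CHST2, called higher, held 51 CG dinucleotides, and CHST4, called lower, held 1. The counts of GPC4 (37) and SDC4 (33) lay near the median of 34 that genes called higher and genes called lower shared. These counts thus do not mark a direction.

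**Figure D2:**
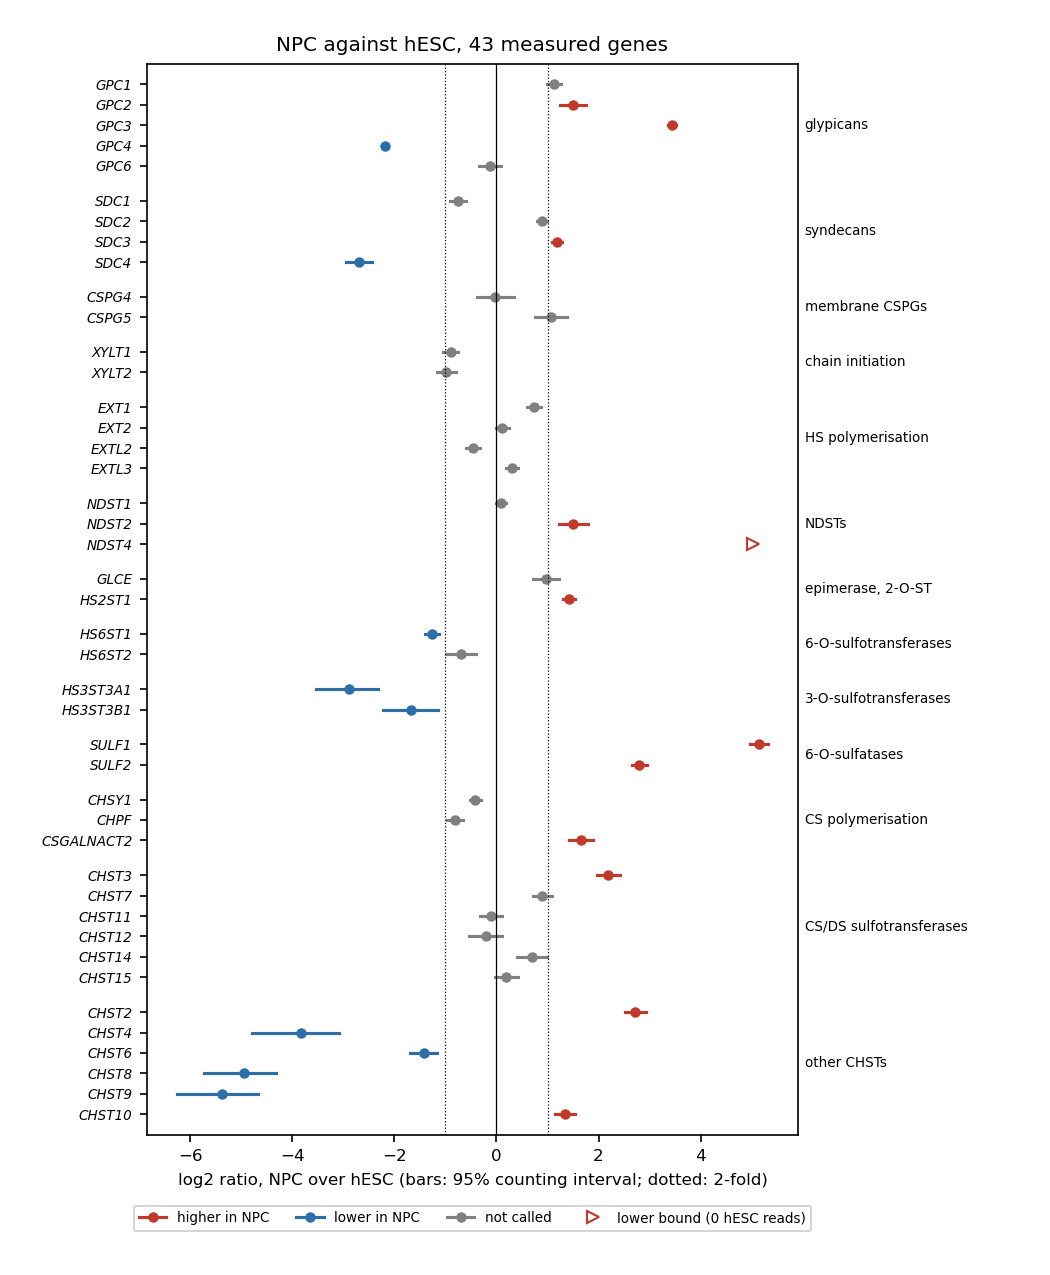
Log2 ratio of NPC over hESC for the 43 measured genes by role, with 95% counting intervals as bars, 2-fold as dotted lines and calls by colour; the open triangle is the lower bound for NDST4, which had 0 hESC reads. SULF1 (35.4-fold) has the largest ratio upwards among genes with reads in both libraries, and CHST9 (41.4-fold) the largest downwards.

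The measured enzymes that start (2 genes) and extend (4 genes) heparan sulfate were not called in either direction, beside 39.4% called over all measured genes. XYLT1 and XYLT2, which add the first xylose of both chain types, had ratios of 0.54 (0.49 to 0.60) and 0.51 (0.44 to 0.58). XYLT1 was called lower with the trend with transcript length removed (near bound 2.16). EXT1 and EXT2, the subunits of the heparan sulfate polymerase, had 1737 and 1388 reads in NPC and 666 and 819 reads in hESC. Their ratios were 1.67 (1.52 to 1.83) and 1.08 (0.99 to 1.18). EXTL3, which adds the amino sugar that commits a chain to heparan sulfate, had a ratio of 1.23 (1.14 to 1.33), and its relative EXTL2 0.73 (0.66 to 0.79). EXTL1 had 22 reads in NPC and 8 in hESC. All 4 measured members of this family thus had ratios between 0.73 and 1.67, less than the 2-fold that the rule asks for.

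The N-deacetylase/N-sulfotransferases, which prepare the chain for later sulfation, had 2 members higher in NPC and none lower of 3 measured. Over all measured genes 19.6% were higher and 19.8% lower. NDST4 passed the filter in NPC alone. NDST1 itself, with 2121 reads in NPC and 1274 in hESC, had a ratio of 1.06 (0.99 to 1.14). NDST2 had 569 reads in NPC and 128 in hESC and was 2.83-fold higher (2.34 to 3.47). NDST4 had 153 reads (5.62 CPM) in NPC and 0 in hESC, which is at least 32.6-fold higher against a floor of 3 hESC reads. The counting interval used for the call has a lower bound of 26.2-fold. NDST3 had 71 reads in NPC and 2 in hESC, a ratio of 18.3 (6.05 to 191), and lay below the filter at 2.61 CPM in NPC.

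The share of NDST reads on NDST1 was 72.8% in NPC (71.1 to 74.4) and 90.7% in hESC (89.1 to 92.1). NDST3 and NDST4 held 2.44% (1.94 to 3.06) and 5.25% (4.50 to 6.12) in NPC. In hESC NDST3 held 0.142% (0.0391 to 0.518) and NDST4 had 0 of 1404 reads, which at a floor of 3 reads allows a share of up to 0.214%. The family therefore differed in make-up while its main member differed by less than 2-fold. The promoter of NDST4 is shown as a contrast in base composition to those of GPC4 and SDC4, with TATAAA in capitals.
NDST4, chr4:115113571-115113870, minus strand (RefSeq, GRCh38.p14): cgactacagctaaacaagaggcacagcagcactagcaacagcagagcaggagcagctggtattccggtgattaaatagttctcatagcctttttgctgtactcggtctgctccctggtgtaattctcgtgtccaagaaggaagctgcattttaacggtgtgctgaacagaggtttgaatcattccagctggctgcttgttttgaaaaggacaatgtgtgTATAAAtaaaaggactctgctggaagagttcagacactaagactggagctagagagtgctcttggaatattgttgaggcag

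NDST4 held 5 CG dinucleotides, the TATA motif shown and no match to the GC box. The TATA motif on either strand was in 11.5% of the 35116 promoters and in 4 of the 49 of this gene set, and the 2 motifs cannot overlap each other. A match is a run of letters and says nothing on binding.

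Among the enzymes that modify the chain after N-sulfation, HS2ST1 was called higher and HS6ST1 was called lower. HS2ST1, the only 2-O-sulfotransferase of heparan sulfate, had 3169 reads (116 CPM) in NPC and 759 (43.7 CPM) in hESC and was 2.67-fold higher (2.46 to 2.89). GLCE, the epimerase that turns glucuronic into iduronic acid ahead of it, had 507 reads in NPC and 166 in hESC, a ratio of 1.95 (1.63 to 2.34), and was called with the library total only. HS6ST1, the main 6-O-sulfotransferase here, had 751 reads (27.6 CPM) in NPC and 1151 (66.2 CPM) in hESC and was 2.40-fold lower (2.19 to 2.63). That call was lost with the library total, where its near bound was 1.71.

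HS6ST2 had 198 reads in NPC and 205 in hESC, a ratio of 0.62 (0.51 to 0.75). HS6ST3 had 132 reads in NPC and 39 in hESC, a ratio of 2.14 (1.503 to 3.18), and lay just under the filter at 4.85 CPM in NPC. The share of 6-O-sulfotransferase reads on HS6ST1 was 69.5% in NPC (66.7 to 72.1) and 82.5% in hESC (80.4 to 84.4). HS6ST3 took 12.2% (10.4 to 14.3) in NPC and 2.80% (2.05 to 3.80) in hESC.

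The 3-O-sulfotransferases, which add the rarest sulfate, were low in both libraries: the 7 genes summed to 7.17 CPM in NPC and 21.7 CPM in hESC. HS3ST3A1 had 29 reads in NPC and 139 in hESC and was 7.40-fold lower (4.999 to 11.6). HS3ST3B1 had 45 reads in NPC and 92 in hESC and was 3.18-fold lower (2.22 to 4.68), and fell under the filter with the library total. The catalytic parts of these paralogs are near-identical, so their reads may be shared and each value is uncertain. The other 5 genes lay below the filter. HS3ST4 had 32 reads in NPC and 65 in hESC, HS3ST5 31 in NPC and 49 in hESC, HS3ST2 9 in NPC and 16 in hESC, and HS3ST6 none in NPC and 5 in hESC. HS3ST1, which makes the antithrombin-binding site, had 49 reads in NPC and 12 in hESC, the one member of the 7 with more NPC than hESC CPM.

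The extracellular 6-O-sulfatases SULF1 and SULF2, which remove 6-O-sulfate from finished heparan sulfate chains and so change the binding of FGF, WNT and BMP ligands, were both far higher in NPC. SULF1 had 14534 reads (534 CPM) in NPC and 262 (15.1 CPM) in hESC and was 35.4-fold higher (31.4 to 40.2). SULF2 had 4754 reads (175 CPM) in NPC and 435 (25.02 CPM) in hESC and was 6.98-fold higher (6.33 to 7.72). Summed over both genes the level was 709 CPM in NPC and 40.1 CPM in hESC, so the sulfatases held 22.6% of the reads of all 57 genes in NPC and 2.41% in hESC.

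The order within the pair also differed. SULF1 made up 72.5% of the sulfatase level per kb in NPC and 34.1% in hESC. Its share of reads was 75.4% in NPC (74.7 to 76.0) and 37.6% in hESC (34.1 to 41.2). SULF2 overlaps NCOA3 on the opposite strand in GENCODE 29, and no strand setting of the counting is known. NCOA3 had 1867 reads in NPC and 1007 in hESC.

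Set side by side, the genes that put on 6-O-sulfate summed to 39.7 CPM in NPC and 80.3 CPM in hESC, and the genes that take it off to 709 CPM in NPC and 40.1 CPM in hESC. These are RNA levels; sulfation was not measured. Markers of other cell types than neural precursors were also present in the NPC library. Of 8 stroma and fibroblast markers 6 were measured, 4 were higher and 1 was lower, with 962 CPM summed in NPC and 656 CPM in hESC. Of 6 neuron markers 4 were higher and 1 was lower, with 1584 CPM in NPC and 280 CPM in hESC. Of 5 mural cell markers 4 were measured, 2 were higher and none was lower, with 130 CPM in NPC and 41.3 CPM in hESC. PDGFRB, called higher at 73.7 CPM in NPC and 17.3 CPM in hESC, is on both the stroma and the mural cell list. It is thus counted in each. Of the higher genes, 2 stroma, 1 neuron and 1 mural cell marker passed the filter in NPC alone, and the lower neuron marker passed in hESC alone. Over all measured genes 19.6% were called higher and 19.8% lower.

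Of 5 neural crest markers 3 were measured, 2 were higher and 1 was lower, with 39.7 CPM in NPC and 22.4 CPM in hESC; FOXD3 had 0 reads in NPC and TFAP2B 0 in hESC. Of 6 oligodendrocyte lineage markers 3 were measured, 1 was higher and 1 was lower, with 64.0 CPM in NPC and 80.3 CPM in hESC. Every called marker of these 2 lists passed the filter in a single library, so its direction was fixed by the filter. The part of such cells in the levels of GPC3, SULF1, SULF2 or any other gene here was not tested. In bulk RNA, fewer cells of a type and less RNA per cell cannot be told apart.

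**Figure D3:**
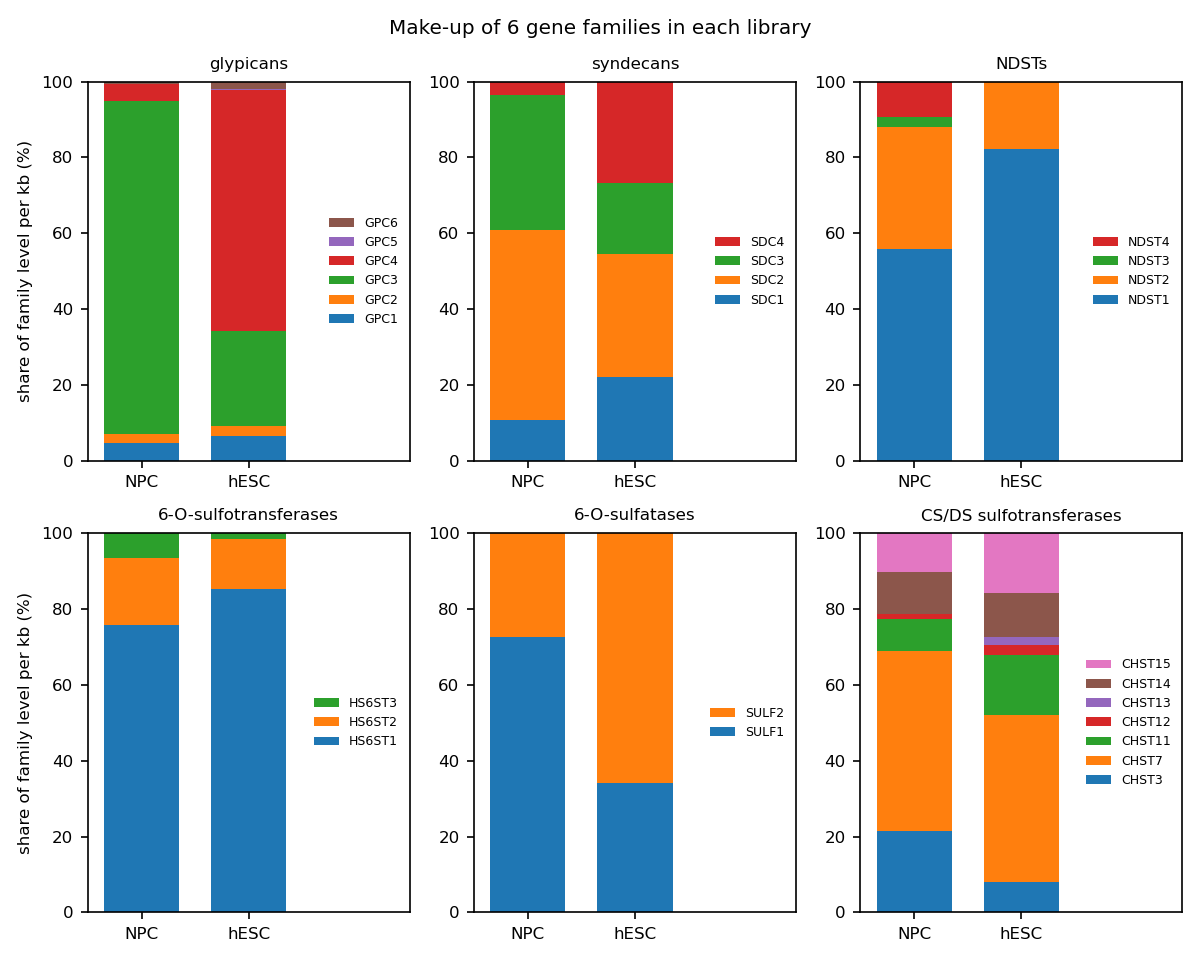
Make-up of 6 gene families in the NPC library (left bar) and the hESC library (right bar) as each member's share of the family's summed CPM per kb of longest transcript. GPC3 holds 87.9% of the glypican level in NPC and GPC4 holds 63.7% in hESC, while SULF1 holds 72.5% of the sulfatase level in NPC and 34.1% in hESC.

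For chondroitin and dermatan sulfate, 2 of the 9 measured enzymes among the 57 genes were higher in NPC (22.2%) and none was lower. The shares over all measured genes were 19.6% higher and 19.8% lower. Outside the 57 genes, the further enzymes CHPF2 and UST were called higher and lower, as given below. CSGALNACT2, which adds the first N-acetylgalactosamine and so commits a chain to chondroitin, had 883 reads in NPC and 179 in hESC and was 3.15-fold higher (2.68 to 3.72). Its relative CSGALNACT1 had 48 reads in NPC and 2 in hESC, a ratio of 12.4 (4.02 to 130), and was below the filter at 1.76 CPM in NPC. The polymerising enzymes CHSY1 and CHPF had ratios of 0.75 (0.70 to 0.81) and 0.57 (0.51 to 0.63). CHSY3 had 127 reads in NPC and 26 in hESC and was under the filter at 4.67 CPM. CHPF shares exonic sequence with TMEM198 on the opposite strand, which had 253 reads in NPC and 144 in hESC.

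Of the 6 measured sulfotransferases of chondroitin and dermatan, CHST3 alone was called (16.7%), beside 39.4% called over all measured genes. CHST3, a 6-O-sulfotransferase of N-acetylgalactosamine, had 1311 reads (48.2 CPM) in NPC and 183 (10.5 CPM) in hESC and was 4.57-fold higher (3.92 to 5.37). The other 6-O-enzyme, CHST7, had 957 reads in NPC and 327 in hESC, a ratio of 1.87 (1.65 to 2.13), and was called with the library total only. The 4-O-sulfotransferases CHST11 and CHST12 had ratios of 0.93 (0.80 to 1.08) and 0.86 (0.69 to 1.08), and CHST13 had 2 reads in NPC and 12 in hESC. CHST14, which sulfates dermatan, had a ratio of 1.61 (1.32 to 1.99), and CHST15, which adds a further sulfate to 4-O-sulfated units, 1.14 (0.98 to 1.34). The share of this family's reads on CHST3 was 35.8% in NPC (34.2 to 37.3) and 13.7% in hESC (11.98 to 15.7), and that of CHST11 was 11.5% in NPC (10.5 to 12.6) and 21.8% in hESC (19.7 to 24.1).

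The CHST genes with other substrates were all called where measured, 2 higher and 4 lower of 6. Over all measured genes 39.4% were called, 19.6% higher and 19.8% lower. Of the 4 lower genes, CHST4, CHST8 and CHST9 passed the filter in hESC alone. CHST2, which sulfates N-acetylglucosamine of keratan sulfate and selectin ligands, had 2160 reads (79.4 CPM) in NPC and 210 (12.1 CPM) in hESC and was 6.56-fold higher (5.70 to 7.61). CHST10, which completes the HNK-1 carbohydrate of neural adhesion molecules, had 1085 reads in NPC and 273 in hESC and was 2.54-fold higher (2.22 to 2.91). No other gene of this group was called higher.

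CHST8 and CHST9, which sulfate N-acetylgalactosamine on glycoprotein hormones, had few reads in NPC. CHST8 had 19 reads in NPC and 384 in hESC and was 30.9-fold lower (19.98 to 53.1). CHST9 had 15 reads in NPC and 410 in hESC and was 41.4-fold lower (25.6 to 77.1), with the limit that AQP4-AS1 overlaps it on the opposite strand (25 reads in NPC and 112 in hESC). CHST4, a sulfotransferase of selectin ligands, had 14 reads in NPC and 132 in hESC and was 14.3-fold lower (8.49 to 27.7). These genes had 0.515 to 0.698 CPM in NPC, against 7.59 to 23.6 CPM in hESC.

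CHST6, the keratan sulfate sulfotransferase of the cornea, had 186 reads in NPC and 319 in hESC and was 2.68-fold lower (2.23 to 3.23). The call was lost with the library total, where the near bound was 1.74. Its near-identical neighbour CHST5, with which it may share reads, had 33 reads in NPC and 7 in hESC. CHST1, a keratan sulfate sulfotransferase, had 136 reads in NPC and 35 in hESC and lay at the edge of the filter, at 4.9995 CPM in NPC.

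**Figure D4:**
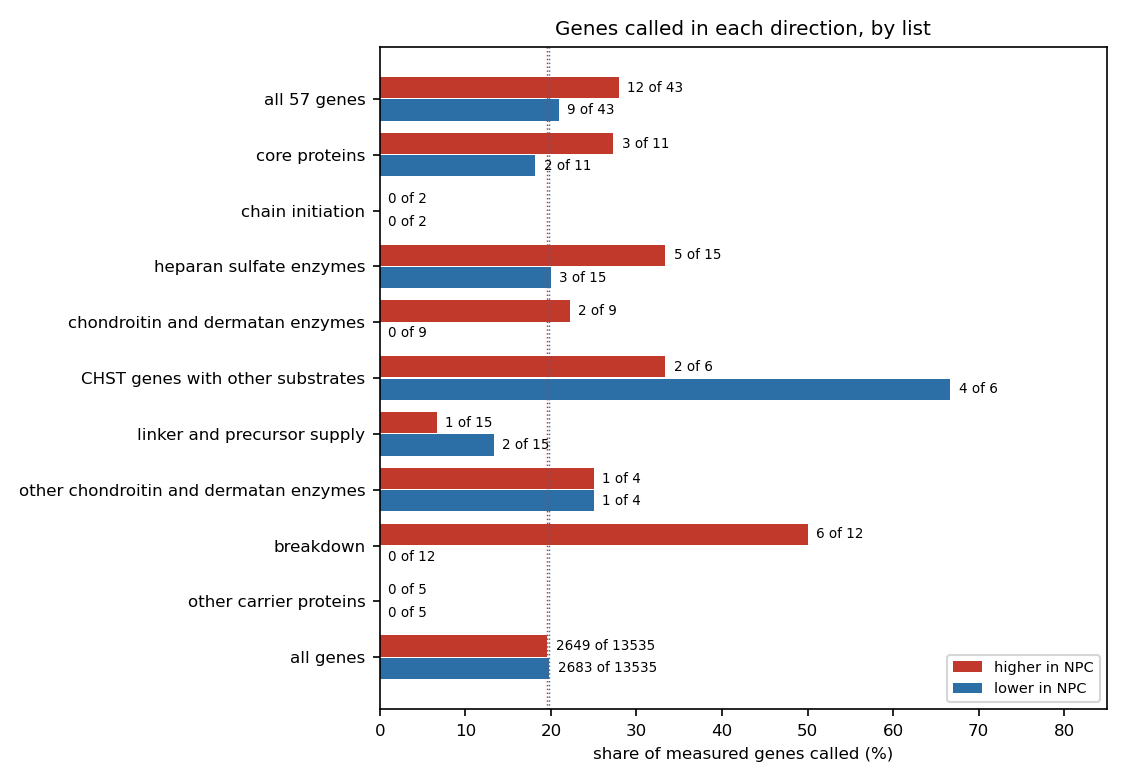
Share of measured genes called higher or lower in NPC than in hESC, for the 57 genes, their roles, 4 lists of other genes of the pathway and all genes; labels give the counts and dotted lines the shares over all genes (19.6% higher, 19.8% lower). The breakdown list has 6 of 12 called higher and 0 lower.

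Other genes of the pathway were read from 4 lists. The supply list holds 15 genes for sugar nucleotides, sulfate donors and the linker sugars. In it 1 gene was higher (6.67%) and 2 were lower (13.3%), both shares below the 19.6% and 19.8% over all measured genes, with a median log2 ratio of 0.05 beside -0.09 over all measured genes. UGP2, which makes UDP-glucose, had 1847 reads in NPC and 9454 in hESC and was 8.01-fold lower (7.62 to 8.42). PAPSS2, a synthase of the sulfate donor PAPS, had 173 reads in NPC and 466 in hESC and was 4.21-fold lower (3.53 to 5.05), while PAPSS1 had a ratio of 0.77 (0.73 to 0.82). SLC35D1, a transporter of UDP-sugars into the endoplasmic reticulum, had 419 reads in NPC and 67 in hESC and was 3.97-fold higher (3.08 to 5.25). At 3.85 CPM in hESC it passed the filter in NPC alone, so it could not have been called lower.

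The breakdown list holds 16 genes for hydrolases and related enzymes of the lysosome, heparanases and hyaluronidases. Of the 12 measured genes 6 were higher and none was lower, where 19.6% of all measured genes were higher and 19.8% lower. The list's median log2 ratio was 0.98. HGSNAT, which acetylates heparan sulfate for degradation, had 1777 reads in NPC and 86 in hESC and was 13.1-fold higher (10.6 to 16.6). IDS, iduronate-2-sulfatase, had 3403 reads in NPC and 394 in hESC and was 5.51-fold higher (4.97 to 6.14). IDUA, the iduronidase that follows it, had 261 reads in NPC and 27 in hESC and was 6.08-fold higher (4.15 to 9.55).

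GALNS and SGSH, which are lysosomal sulfatases, were also called higher. HGSNAT, IDUA and SGSH were under 5 CPM in hESC and passed the filter in NPC alone, so they could not have been called lower. With the filter at 1 CPM or with none, 2 genes of this list were called lower, HPSE and HYAL1. HPSE, heparanase, had 26 reads in NPC and 65 in hESC, and HYAL1, a hyaluronidase, had 19 reads in NPC and 52 in hESC. HPSE and HYAL1 were named after their values were seen.

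Among 4 other chondroitin and dermatan enzymes, CHPF2, a polymerising factor, was 3.26-fold higher (2.51 to 4.34) and UST, a 2-O-sulfotransferase of uronic acid, 2.99-fold lower (2.69 to 3.33). At 3.80 CPM in hESC CHPF2 passed the filter in NPC alone, so it could not have been called lower. DSE and DSEL were not called, at ratios of 0.48 (0.43 to 0.53) and 0.47 (0.41 to 0.54). Beside 39.4% called over all measured genes, none of 5 measured other carrier proteins was called. They include AGRN, agrin of basement membranes and synapses, with a ratio of 1.21 (1.16 to 1.26), and PTPRZ1, a receptor phosphatase of neural progenitors that carries chondroitin sulfate, with a ratio of 0.968 (0.934 to 1.003).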

How the data were processed

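The authors deposited a table of unnormalised read counts by gene symbol for each library. TopHat, edgeR and hg19 are named, without their roles, per the submitters' processing notes. Counter, annotation and strand setting are not given in the sources used. Per the labels' protocols, 1.3 µg of total RNA in Trizol went into each library, made with a SMARTER mRNA-Seq kit.

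Of 25737 rows, the row with most reads was kept for each of 286 symbols on several rows. No member was on several rows. TMM factors came from edgeR 4.0.16 in R 4.3.3 (1.13 for NPC, 0.884 for hESC). Point ratios add 0.5 reads to each count, and intervals are Clopper-Pearson on the NPC share of a gene's reads. A gene at 5 CPM had 136 reads in NPC and 86.9 in hESC, and the floor for a count of 0 (3 reads) was 0.110 CPM in NPC and 0.173 CPM in hESC. PCR copies cannot be told from separate molecules here, so intervals and floors cover counting error only. Transcript lengths came from GENCODE 29, for all 57 genes and 94.8% of measured genes. The interval code was tested on simulated data.

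The members and lists were chosen with earlier results of these data known. Every called member was named with its reads, the others with reads or ratios, and up to 3 genes each way from each further list. PAPSS1, GALNS, SGSH, DSE, DSEL, AGRN and PTPRZ1 were named after their values were seen. One gene of the breakdown list is counted but not reported by name here. The alternatives tried were DESeq2 1.42.0 size factors, the library total, upper-quartile factors, filters of 1 and 20 CPM or none, a 4-fold bound, the point ratio, the sum of all rows, removal of 112 ribosomal protein and mitochondrial-type genes, and removal of the lowess trend with transcript length (statsmodels 0.14.6, fraction 0.5). Their use on the 4 further lists was added after seeing the data.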

Additional observations from a re-analysis of the deposited data

How the results depend on the processing

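No gene among the 43 measured members that was called changed sign under the 6 alternatives that can change a ratio (the others change only the filter or the call rule). Of the 43 ratios, 36 moved outside the gene's counting interval with the library total and 16 with the length trend removed, and 0 under the other 4. No paired analysis was possible because each condition has 1 library. With the library total, 19 of 45 measured members were called higher and 6 lower, against 12 and 9 of 43. The members' median log2 ratio was then 0.66, beside 0.31 over all measured genes. Of 13605 measured genes that scaling called 3679 higher (27.0%) and 1796 lower (13.2%), so 67.2% of calls were higher, against 49.7% with TMM. With a filter at 20 CPM, 11 of 29 measured members were higher and 5 were lower. Of 9377 measured genes of the whole table, 1684 were higher (18.0%) and 2030 lower (21.6%) with that filter. The members' median was then 0.74, beside -0.20 over all measured genes. The members' median was 0.50 with a filter at 1 CPM, beside 0.01 over all measured genes. Without ribosomal protein and mitochondrial-type genes the members' median was 0.24, beside -0.08 over all measured genes. With the trend with transcript length removed the members' median was -0.024, a change of sign for a value near 0, beside -0.053 over all measured genes. The median trend at the members was 0.09. With a 4-fold bound 5 members were higher (6 lower), as were 1236 genes of the whole table, with 983 lower. Of the further lists, the supply list had 2 genes higher with the library total or the point ratio, 0 higher with the 20 CPM filter, and 0 higher and 1 lower with the 4-fold bound. The other chondroitin and dermatan enzymes had 0 higher with the 20 CPM filter, 0 higher and 0 lower with the 4-fold bound, and 3 lower with the point ratio or the length trend removed. The breakdown list had 2 lower once the filter was at 1 CPM or removed, and 3 higher with the 4-fold bound. Fewer genes tested or a stricter bound accounts for the lower counts under the 20 CPM filter and the 4-fold bound. The library total adds 0.36 to every log2 ratio, and the filters change which genes are counted, not their ratios. For the remaining changes the cause was not tested. Genes near 5 CPM rest on few reads. With no filter, 15 of 57 members were higher and 11 lower, beside 16.6% higher and 15.3% lower of 21965 genes with a read.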
